A study of Homo sapiens with 9 samples.

Results

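The 10 genes described here, BCL2L1, MCL1, BCL2L11, BAX, BAK1, BID, BAD, BBC3, PMAIP1 and BCL2L12, belong to the BCL2 family and were chosen by name. They are 10 of 22384 genes with at least 1 read pair in the 4 TIF-Seq2 libraries. TIF-Seq2 reads the capped 5′ end and the polyadenylated 3′ end of the same RNA molecule, so that each read pair links a transcription start site (TSS) to a poly(A) site (PAS). The libraries came from K562, an established line of human chronic myeloid leukemia cells that depends on the BCR-ABL1 kinase. In the treated group, 2 biological replicates were kept with 1 µM imatinib, an inhibitor of that kinase, for 24 h, and the 2 control replicates received DMSO. A pair was counted for a gene when both of its ends lay on the strand of the gene and no more than 1 kb outside its Gencode v44 body. One line, 1 dose and 1 time were measured, and the sequenced RNA came from bulk cultures, in which fewer cells of a type and less RNA per cell cannot be told apart.

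BCL2 family proteins decide whether the outer mitochondrial membrane stays intact. BAX and BAK1 are the effectors that form pores in it, BCL2L1 (whose long product is BCL-XL) and MCL1 are guardians that bind and hold back the other members, and the BH3-only proteins BCL2L11 (BIM), BID, BAD, BBC3 (PUMA) and PMAIP1 (NOXA) set off the process by binding the guardians or the effectors. BCL2L12 is a divergent member. In BCR-ABL1-positive cells, kinase signalling through STAT5 is known to sustain BCL-XL, and forkhead factors such as FOXO3 are known activators of BCL2L11. BCL-XL and its short form BCL-XS, or the exon 2 skipping form of MCL1, differ by splicing inside the molecule and cannot be seen from its 2 ends.

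Levels are given as CPM, the pairs of a gene per 1000000 pairs of the library. The libraries held 3695520 and 5135829 pairs in DMSO and 4263670 and 2263121 in imatinib, of which 97.5% to 98.5% lay in a gene. Log2 CPM of tested genes correlated across genes with Pearson's r of 0.978 between the DMSO and 0.952 between the imatinib replicates, and their counts differed by more than sampling noise in both groups. All 10 erythroid markers examined, of the lineage that K562 is known to resemble, were detected. Their summed level was 6312 to 7028 CPM in DMSO and 20126 to 21171 CPM in imatinib, 7 of the 10 rose, and the part of this shift in the results below was not tested. Of the markers of other cell types, 4 (CD3E, MS4A1, CD14 and ELANE) had no pair, and EPCAM was not called (log2 fold change -0.40, edgeR adjusted p = 0.326).

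Every member was detected in every library. BID and BCL2L12 were the most abundant, and BAX and BAK1 the least. Since 1 pair stands for 1 molecule, CPM was not divided by length, although long molecules may be captured less well. By the mean over the 4 libraries, BID had 269 CPM, BCL2L12 151, BAD 85.0, BBC3 47.8, BCL2L1 37.5, PMAIP1 26.6, BCL2L11 20.9, MCL1 12.7, BAX 7.52 and BAK1 3.71 CPM. Of neighbours in this order, only BCL2L12 and BAD had 4 values each that did not overlap. Only 2 pairs, both of BID, also matched another gene.

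**Figure D1:**
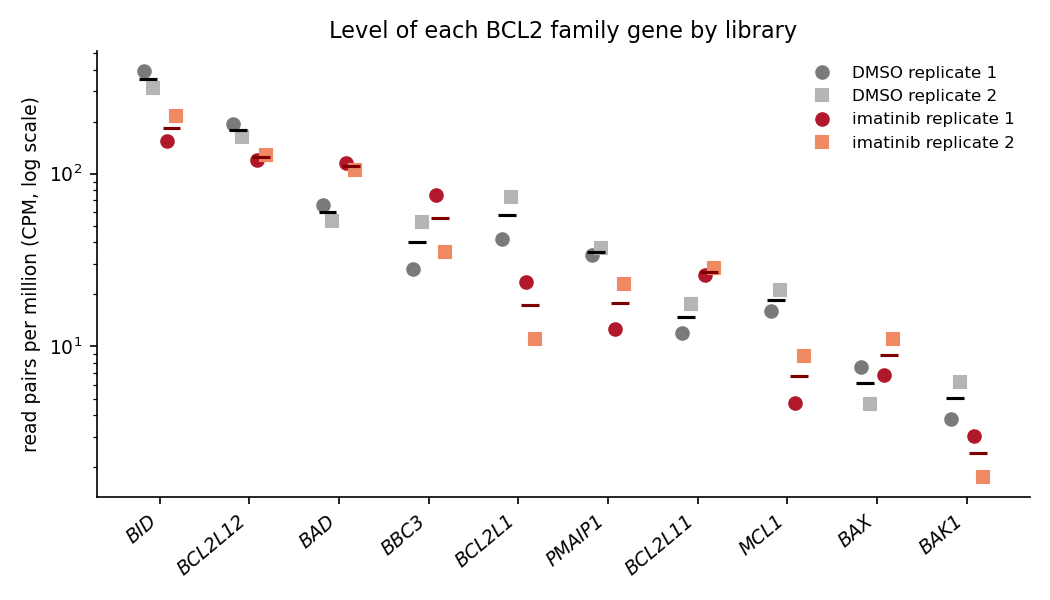
Level of the 10 genes in each library, in CPM on a log axis, ordered by the mean over libraries; circles and squares are replicates 1 and 2 and short lines are group means (n = 2). BCL2L1 and MCL1 are lower in both imatinib libraries than in both DMSO libraries, while BBC3 and BAX overlap.

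Imatinib was first compared with DMSO at the level of whole genes. BCL2L1, MCL1 and BID fell and no member rose, and the other 7 did not pass the test (edgeR's quasi-likelihood test, adjusted p under 0.05 over 12135 tested genes). All 10 members passed the filter on low counts. The background was 14.8% of tested genes called, 8.69% higher and 6.15% lower. The median log2 fold change of the members was -0.81, against 0.03 over all tested genes, and 6 of the 10 had an unadjusted p under 0.05, BCL2L11 and BAD among them on the higher side, against 3783 of the 12135 tested genes. DESeq2 called the same 3 genes and no other member. CPM of the groups did not overlap for 8 of the 10 members, against 60.3% of tested genes. With 2 libraries a group, an exact permutation test of 1 gene cannot give a two-sided p below 0.333, so the test across genes, which shares information on their spread, carries all calls.

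**Figure D2:**
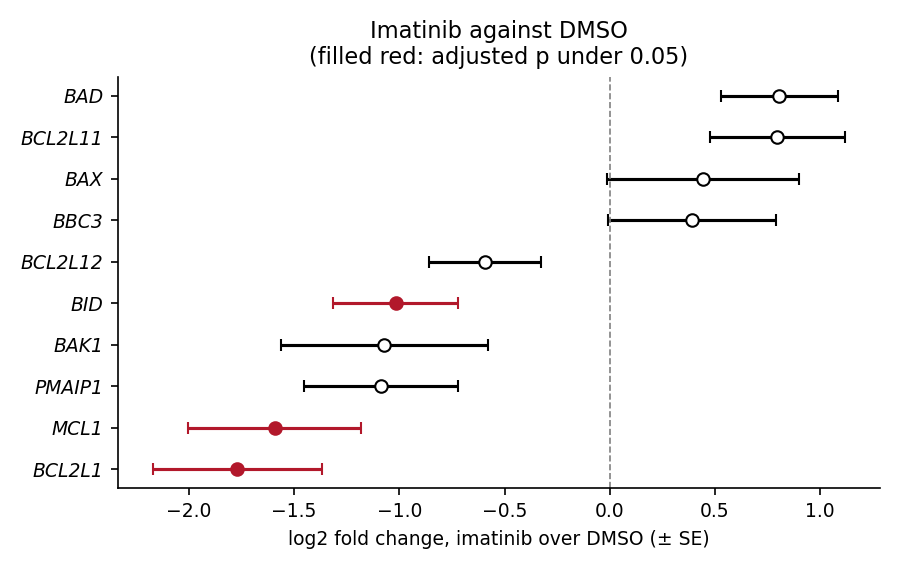
Log2 fold change of each member, imatinib over DMSO (edgeR, points with SE, n = 2 libraries a group); filled red points passed an adjusted p of 0.05. The called genes are BCL2L1, MCL1 and BID, all on the negative side.

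Among the guardians, BCL2L1 (ENSG00000171552, chr20:31664452-31723989 on the minus strand, hg38) had 155 and 376 pairs in DMSO and 101 and 25 in imatinib. That is 41.9 and 73.2 CPM against 23.7 and 11.05 CPM, so both treated libraries lay below both controls. The log2 fold change was -1.77 (SE 0.40), a level 3.41 times as high in DMSO (edgeR adjusted p = 0.0212). Without DMSO replicate 2 it was -1.41 and was no longer called (edgeR adjusted p = 0.0697).

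Most of the drop in BCL2L1 CPM was at one start site, in intron 1. Its molecules began at several places and nearly all ended at the same one, 98.9% of 652 at chr20:31664460, the canonical end. The starts most used, joined when at most 25 bp apart, were 319 nt inside the gene in intron 1 (chr20:31722549, annotated start of BCL2L1-212), at the canonical start in exon 1 (chr20:31722868, BCL2L1-201), 1092 nt upstream of it (chr20:31723960, BCL2L1-211) and in exon 2 (chr20:31722295). All 4 lie upstream of the first coding base, by 331, 650, 1742 and 77 nt on the genome. The 30 bases around the first 3 are given because most of the fall after imatinib was at the first of them. The last base before the start and the first base of the molecule are in capitals (hg38, minus strand, chr20:31722535-31722564, chr20:31722854-31722883 and chr20:31723946-31723975).
Intron 1 start: ctttccgaggaaggCAtttcggagaagacg
Canonical start: tgcggagcggccgcCCtcgatccgggcgat
Upstream start: ctcgcgcgcgttgcCGcggcaccggaagtg

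The intron 1 start led in DMSO, with 82 of 155 and 180 of 376 pairs, and gave 13 of 101 and 1 of 25 in imatinib. Its share was 52.9% (95% Wilson interval 45.1% to 60.6%) and 47.9% (42.9% to 52.9%) in DMSO, against 12.9% (7.68% to 20.8%) and 4.00% (0.71% to 19.5%) in imatinib. These intervals and all others given here cover counting error only. In level the start went from 22.2 and 35.05 CPM to 3.05 and 0.44 CPM. The canonical start held 7.31 and 14.2 CPM in DMSO and 9.15 and 7.07 CPM in imatinib, which overlap. Its share accordingly stood at 17.4% and 19.4% in DMSO and 38.6% and 64.0% in imatinib. The upstream start had 9 and 23 pairs in DMSO and 30 and 2 in imatinib, and the exon 2 start 7 and 31 against 0 and 2.

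Start and end were then tested together. A TIF, a TSS cluster linked to a PAS cluster by at least 4 pairs, is defined on narrower clusters than the groups above. Of 16020 tested TIFs, 11.1% were called, 6.38% higher and 4.73% lower. From chr20:31722549, inside the intron 1 group, to the canonical end there were 24 and 52 pairs in DMSO and 4 and 1 in imatinib, a log2 fold change of -3.32 (SE 0.63, edgeR adjusted p = 0.0121). From chr20:31722500, 49 nt downstream in the same group, there were 12 and 23 pairs in DMSO and none in imatinib (edgeR adjusted p = 0.0127). With 3 pairs as the limit for each empty library, this TIF was at least 3.81-fold lower in imatinib. Both TIFs passed the filter on low counts through the DMSO libraries alone, where they were high. Their calls are therefore no independent support for a fall. The TIF from the canonical start had 14 and 39 pairs in DMSO and 26 and 8 in imatinib, a log2 fold change of -0.11 (SE 0.52, edgeR adjusted p = 0.915).

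Whether the starts moved relative to each other was tested within the gene (edgeR diffSpliceDGE). Of 10546 TSS clusters tested, 3.21% were called, 1.27% higher and 1.93% lower in relative use. Of the 12 clusters of members that could be tested, the one at chr20:31722500 was called (adjusted p = 0.0464), with no pair in imatinib. That cluster entered the test through the DMSO libraries alone, so its call is no independent support for a shift. The clusters at chr20:31722549 and chr20:31722868 had relative log2 changes of -1.89 (adjusted p = 0.149) and 1.48 (adjusted p = 0.116), with n = 2 libraries a group in diffSpliceDGE. When clusters were joined at 50 bp, so that both intron 1 clusters became 1, that cluster (-2.53, diffSpliceDGE adjusted p = 0.0277) and the canonical one (1.74, diffSpliceDGE adjusted p = 0.0485) were both called. In that setting 164 of 2882 tested clusters were called, and these 2 were the only clusters of members tested. The call at chr20:31722500 was lost on leaving out either imatinib library or DMSO replicate 1 (diffSpliceDGE adjusted p from 0.131 to 0.671), while without DMSO replicate 2 it could not be fitted.

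**Figure D3:**
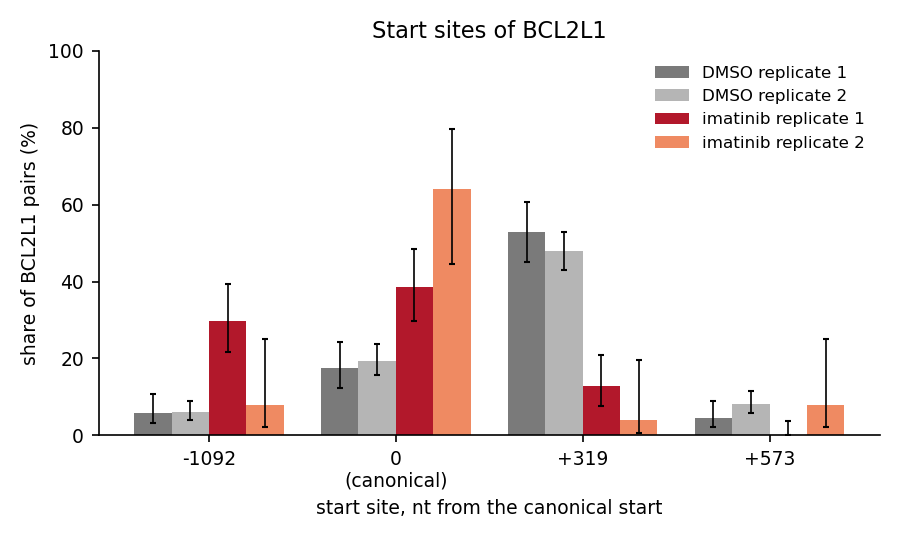
Share of BCL2L1 pairs that begin at each of its 4 most used starts, by library, with 95% Wilson intervals; starts are placed by their distance from the canonical start. The intron 1 start (+319 nt) holds 47.9% to 52.9% in DMSO and 4.00% to 12.9% in imatinib.

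MCL1 (ENSG00000143384, chr1:150560895-150579738, minus strand) fell as well. It had 59 and 109 pairs in DMSO and 20 in each imatinib library, or 16.0 and 21.2 CPM against 4.69 and 8.84 CPM. The treated libraries were both below the controls, with a log2 fold change of -1.59 (SE 0.41, edgeR adjusted p = 0.0332), a level 3.01 times as high in DMSO. The call was lost without DMSO replicate 2 (edgeR adjusted p = 0.129) and without imatinib replicate 1 (-1.09, edgeR adjusted p = 0.0718). Among 12125 genes compared, those whose log2 CPM lay nearest to MCL1 in the 4 libraries, by Euclidean distance, were SERTAD1 (0.24), NUFIP1 (0.26) and COLEC11 (0.30).

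Most MCL1 molecules began inside the last exon. Of its 208 pairs, 160 (76.9%, 70.7% to 82.1%) started inside the canonical last exon, exon 3, and 9 (4.33%) within 100 bp of the canonical start. In the other 9 genes, 0.17% to 8.44% of pairs started in the last exon and, BCL2L1 (23.7%) aside, 77.3% to 98.7% began within 100 bp of the canonical start. The share in the last exon was 78.0% and 74.3% in DMSO and 85.0% and 80.0% in imatinib. All MCL1 starts together were scattered over 51 groups, the largest with 13.9% of pairs, and no TSS cluster or TIF of MCL1 passed the limits. In the 5 starts most used, none of the base pairs spanning the start was CA, CG, TA or TG. These are the letters common at sites of initiation by RNA polymerase II. The leading start of each of the other 9 genes had one of them, but their lower-ranked starts were mixed. Some of those had one of the 4, and others, the canonical start of BCL2L1 (CC) among them, had none. Across all TSS clusters, which are sites of high use, 71.3% had one of the 4. The level given for MCL1 is therefore mostly that of molecules whose recorded 5′ end lies within the last exon.

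**Figure D4:**
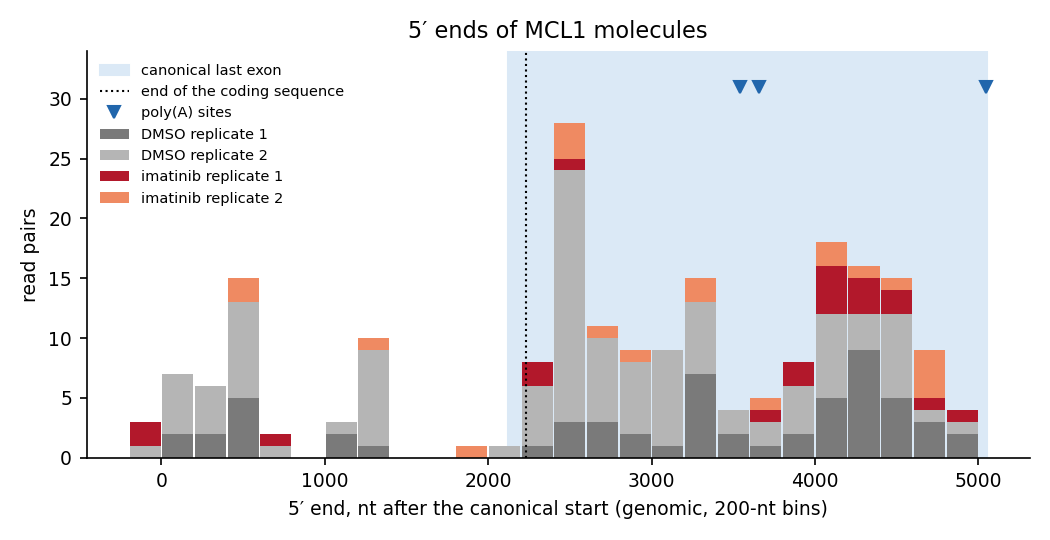
Number of MCL1 read pairs by the position of their 5′ end, in 200-nt bins on the genome from the canonical start, stacked by library; the blue area is the canonical last exon, the dotted line the end of the coding sequence and the triangles the 3 most used poly(A) sites. Most 5′ ends fall in the blue area; 1 pair that starts farther downstream is not drawn.

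The MCL1 molecules ended mainly at 3 of 5 groups of sites, all in the last exon past the stop codon. The canonical end at chr1:150574561, 2817 nt past the last coding base, took 116 of 207 ends (56.0%). The early sites at chr1:150575950 and chr1:150576068, 1428 and 1310 nt past it, took 71 (34.3%) and 17 (8.21%), and neither is within 1000 nt of an annotated end. No MCL1 molecule ended before the last exon, and 0 of 207 allows a share of up to 1.45% of recorded molecules. Most of these began inside that exon and could not end before it. The limit for molecules that began upstream of it is therefore wider. The 30 bases before each cleavage position are given because a canonical signal is present at 2 of the sites only, with AATAAA in capitals (hg38, minus strand, chr1:150574561-150574590, chr1:150575950-150575979 and chr1:150576068-150576097).
Canonical end: tcctgagaaaaaaaAATAAAtcttttattc
First early site: cttactgttttgtttctattaatgattccc
Second early site: tgcttAATAAAttataaaatgatggcttgg

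Within the last 40 nt, 68.8% of all PAS clusters held AATAAA or ATTAAA (same strand; 52.3% AATAAA). The canonical end of MCL1 had 43 pairs in each DMSO library and 17 and 13 in imatinib, and the site at chr1:150575950 had 10 and 51 in DMSO and 3 and 7 in imatinib. DMSO replicate 2 was the high library at the latter, with 46.8% of its ends against 17.2% in DMSO replicate 1, 15.0% in imatinib replicate 1 and 7 of 20 ends in imatinib replicate 2, so that the groups overlapped. The site at chr1:150576068 had 5, 12, 0 and 0 pairs. These counts were too low for the test of PAS use.

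Of the BH3-only genes, PMAIP1 changed in 1 of its isoforms. The gene (ENSG00000141682, chr18:59899996-59904305, plus strand) had 33.8 and 37.0 CPM in DMSO and 12.7 and 23.0 CPM in imatinib. Its values did not overlap, but the log2 fold change of -1.09 (SE 0.37) did not pass (edgeR adjusted p = 0.0795). It was called without imatinib replicate 2 (-1.64, edgeR adjusted p = 0.000209) and with no filter on low counts (edgeR adjusted p = 0.0146). Its molecules shared a start, 406 of 421 (96.4%) at chr18:59899996, and spread over 13 groups of 3′ ends, all but 3 molecules ending in the last exon past the stop codon. The 3 most used ends are shown, with the signal hexamer AATAAA or ATTAAA in capitals (hg38, plus strand, chr18:59903003-59903032, chr18:59903516-59903545 and chr18:59904277-59904306).
Early site, 282 nt past the last coding base: ccttgaaAATAAAgaagtaattattgacac
Middle site, 795 nt past: gtataaccagggatAATAAAaagaaaaaag
Canonical end, 1556 nt past: gcagtaaactATTAAAagttttcactgttc

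The early site at chr18:59903032 took 31 and 38 pairs in DMSO and 4 in each imatinib library. That is 26.5% and 21.5% of 3′ ends against 8.51% in each. The canonical end at chr18:59904306 took 65, 88, 28 and 34 pairs, 55.6% and 49.7% of ends in DMSO and 59.6% and 72.3% in imatinib. The middle site at chr18:59903545 had 9, 14, 6 and 2. As a TIF, start to early site went from 21 and 24 pairs to 2 and 3, a log2 fold change of -2.57 (SE 0.65, edgeR adjusted p = 0.0337), and start to canonical end from 38 and 46 to 16 and 27 (-0.29, SE 0.54, edgeR adjusted p = 0.782). The TIF to the early site passed the filter on low counts through the DMSO libraries alone. The call rested on both controls and on imatinib replicate 1, as the edgeR adjusted p was 0.162 without DMSO replicate 1, 0.0971 without DMSO replicate 2 and 0.144 without imatinib replicate 1. With the replicate number as a block the edgeR adjusted p was 0.0565, and the DESeq2 adjusted p was 0.155. The test of the difference between the sites did not pass. The relative use of the early site changed by -1.62 on the log2 scale (edgeR diffSpliceDGE, adjusted p = 0.888, unadjusted 0.0264). Of 9969 PAS clusters tested 0.0602% were called (0.0201% higher, 0.0401% lower), none of the 7 of members.

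BCL2L11 (ENSG00000153094, chr2:111119378-111168444, plus strand) moved the other way in level without passing the test. It had 44 and 90 pairs in DMSO and 110 and 64 in imatinib, or 11.9 and 17.5 CPM against 25.8 and 28.3 CPM. The groups did not overlap, with a log2 fold change of 0.80 (SE 0.32, edgeR adjusted p = 0.129), and over its alternatives the edgeR or DESeq2 adjusted p ranged from 0.0530 to 0.598. The genes nearest to it in log2 CPM over the 4 libraries were TRPM7 (distance 0.17), GANAB (0.27) and ZNF766 (0.27). In RefSeq promoters (GRCh38.p14, 250 bases before to 50 after the start), matched for 9 members (not MCL1) with 16 windows, the forkhead letters TGTTTAC were found on either strand in 3.42% of 35116 promoters and in 1 of the 16 windows of members, in BCL2L11, 223 bases before its start. They are shown as they read on the plus strand, in capitals (chr2:111120680-111120709).
BCL2L11 promoter: gagttactccgGTAAACAcgccagggacgg

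The STAT letters TTCNNNGAA occurred in 7.66% of these promoters and in none of the members' windows. The windows did not cover every start described here. The stretch printed above for the intron 1 start of BCL2L1 lay outside them, and its bases ttcggagaa, downstream of the start, match these letters. That stretch was printed because of the fall there in these data, and how often such stretches match was not counted. Whether a STAT protein binds there was not tested. Of BCL2L11 molecules, 262 of 308 (85.1%, 80.7% to 88.6%) began at chr2:111120914, the canonical start, and few reached the canonical end. At the canonical end, chr2:111168444, there were 13 of 281 ends (4.63%, 2.72% to 7.75%). The leading site, chr2:111164630, took 138 (49.1%) and lies in the last exon 402 nt past the last coding base and 3814 nt before the canonical end. The next, chr2:111128844, took 60 (21.4%). It lies in intron 2, 7 nt from the annotated end of BCL2L11-205, a protein-coding transcript that stops before the canonical exons 3 and 4. The 30 bases before each are given with their signal hexamer in capitals (hg38, plus strand, chr2:111128815-111128844, chr2:111164601-111164630 and chr2:111168415-111168444).
Intron 2 site: ggtgattaAATAAAatgtattttaatattg
Last exon, leading site: ataacttttgtATTAAAattttaagaacct
Canonical end: aattttataaaAATAAAactttcaactagt

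In all, 64 of 281 BCL2L11 molecules (22.8%, 18.3% to 28.03%) ended before the canonical last exon. By library these were 13 of 42 (31.0%) and 22 of 85 (25.9%) in DMSO, and 25 of 97 (25.8%) and 4 of 57 (7.02%) in imatinib. Imatinib replicate 2 was the low library and imatinib replicate 1 lay beside the controls. The relative use of the intron 2 site changed by -0.51 (diffSpliceDGE adjusted p = 1.00) and that of the leading site by 0.17 (diffSpliceDGE adjusted p = 1.00) on the log2 scale. In imatinib replicate 2 alone the site at chr2:111167012, 2784 nt past the last coding base, took more ends than the intron 2 site, 9 against 4. Of the 60 molecules ending in intron 2, 58 began at the canonical start. None of the other 9 members had over 1% of its molecules ending before the last exon, though most MCL1 molecules began inside it. They had 0 of 652 in BCL2L1 (which allows up to 0.46%), 0 of 1248 in BAD (up to 0.24%), 0 of 774 in BBC3 (up to 0.388%), 0 of 63 in BAK1 (up to 4.76%), 16 of 2345 in BCL2L12 (0.68%), 3 of 388 in PMAIP1 (0.77%), 1 of 106 in BAX (0.94%) and 1 of 4103 in BID (0.02%).

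**Figure D5:**
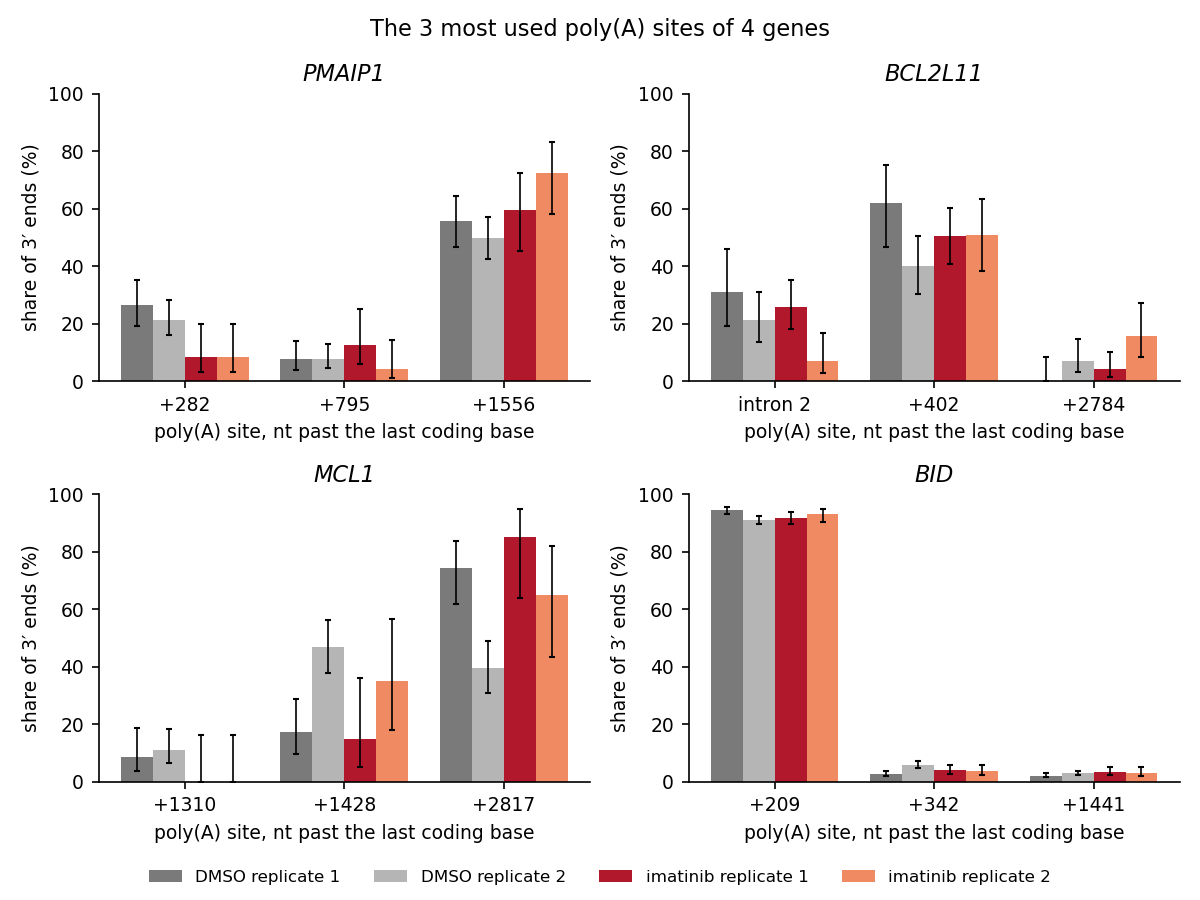
Share of 3′ ends at the 3 most used poly(A) sites of PMAIP1, BCL2L11, MCL1 and BID, by library, with 95% Wilson intervals; sites are labelled by the genomic distance past the last coding base. The early PMAIP1 site (+282 nt) is at 21.5% to 26.5% in DMSO and 8.51% in both imatinib libraries, and the intron 2 site of BCL2L11 is low in imatinib replicate 2 only.

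BID (ENSG00000015475, chr22:17734138-17774770, minus strand), whose product is cleaved by caspase-8, was the most abundant member and fell at the edge of the threshold. It had 1451 and 1611 pairs in DMSO and 656 and 485 in imatinib, or 393 and 314 CPM against 154 and 214 CPM, with no overlap. The log2 fold change was -1.02 (SE 0.30, edgeR adjusted p = 0.0499). The call was lost in 7 of 13 alternatives, among them without DMSO replicate 1 (-0.81, edgeR adjusted p = 0.321), without DMSO replicate 2 (edgeR adjusted p = 0.0829) and without imatinib replicate 1 (edgeR adjusted p = 0.0617). In 97.4% of pairs it began in the start group led by chr22:17774471, 2 nt from the canonical start. This group holds the TSS clusters at chr22:17774471 and chr22:17774495. The latter had 36.7% and 39.3% of clustered starts in DMSO and 48.8% and 44.5% in imatinib (relative log2 change 0.29, not called in diffSpliceDGE). Most BID molecules ended early. Of 4103 ends, 3797 (92.5%) were at chr22:17735374, 209 nt past the last coding base, 175 (4.27%) at chr22:17735241 and 114 (2.78%) at the canonical end, chr22:17734142. The leading site, 10 nt from the annotated end of BID-204, has neither AATAAA nor ATTAAA in its last 40 nt, while the rarely used canonical end has AATAAA (hg38, minus strand, chr22:17735374-17735403 and chr22:17734142-17734171, hexamer in capitals).
Leading site of BID: tctacattaatatacttgaatgaaaatgtc
Canonical end of BID: cactgtttggaAATAAAtcttcctaacact

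The shares of the leading BID site were 94.5% and 91.0% in DMSO and 91.8% and 93.0% in imatinib, and its relative use changed by -0.0029 on the log2 scale (diffSpliceDGE adjusted p = 1.00).

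BAD and BBC3, both antagonists of the guardians, had a single poly(A) site each. BAD (chr11:64269830-64284704, minus strand) had 65.8 and 53.5 CPM in DMSO and 116 and 105 CPM in imatinib. Both treated libraries were above the controls, but the log2 fold change of 0.81 (SE 0.28) did not pass (edgeR adjusted p = 0.0854). It was called without imatinib replicate 2 (edgeR adjusted p = 0.0402). All 1248 ends were at chr11:64269833, the canonical end. Its TIFs from chr11:64284654 (99, 95, 182 and 119 pairs) and from chr11:64284704 (108, 116, 207 and 74 pairs) had log2 fold changes of 1.162 (edgeR adjusted p = 0.0625) and 0.76 (edgeR adjusted p = 0.206).

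BBC3 (chr19:47220822-47232766, minus strand) had 28.1 and 52.4 CPM in DMSO and 75.3 and 35.3 CPM in imatinib, which overlap. Its log2 fold change of 0.39 (SE 0.40, edgeR adjusted p = 0.547) turned to -0.20 without imatinib replicate 1. All 774 ends were at chr19:47220824. Its starts were the canonical one, chr19:47231199 (76.6%), an intron 1 site at chr19:47228532 (8.66%) with 7, 30, 24 and 6 pairs, and an intron 2 site at chr19:47227147 (4.01%), 42 nt from the annotated start of BBC3-205. The latter had 10 and 18 pairs in DMSO and 1 and 2 in imatinib, too few to enter the test of start use. It made up 9.62% and 6.69% of the gene's pairs in DMSO and 0.31% and 2.50% in imatinib.

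By the mean over the 4 libraries, the effectors BAX and BAK1 were the least abundant members, though MCL1 lay below BAX in both imatinib libraries. BAX (chr19:48954815-48961798, plus strand) had 28, 24, 29 and 25 pairs, or 7.58 and 4.67 CPM in DMSO and 6.80 and 11.05 CPM in imatinib, with a log2 fold change of 0.44 (SE 0.46, edgeR adjusted p = 0.550). BAK1 (chr6:33572547-33580293, minus strand) had 14, 32, 13 and 4 pairs, or 3.79 and 6.23 CPM in DMSO and 3.05 and 1.77 CPM in imatinib. Its groups did not overlap, with a log2 fold change of -1.07 (SE 0.49, edgeR adjusted p = 0.174). Both genes had a leading start (92.5% and 88.9% of pairs) and a single main poly(A) site (98.1% and 98.4% of ends).

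BCL2L12 (chr19:49665142-49673916, plus strand) had 193 and 163 CPM in DMSO and 120 and 129 CPM in imatinib. The groups did not overlap, with a log2 fold change of -0.59 (SE 0.27, edgeR adjusted p = 0.166). It had 1 main poly(A) site, chr19:49673915 (99.2% of ends), and 3 TSS clusters within 62 nt. The least used of these, chr19:49665932, had 13 and 24 pairs in DMSO and 30 and 19 in imatinib, 1.958% and 3.166% of clustered starts against 6.32% and 7.14% (relative log2 change 1.40, diffSpliceDGE adjusted p = 0.0968). Of the few pairs that ran across gene borders, 5 joined a start in BCL2L12 to an end in PRMT1.

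Other apoptosis genes were examined as lists, whose called genes are all given. In the 4 lists, 3 of 6, 2 of 13, 2 of 6 and 7 of 11 tested genes had an unadjusted p under 0.05 in edgeR, against 3783 of all 12135 tested. Among 12 further BCL2 family genes, 6 had counts enough to be tested, 3 rose and none fell. BMF, a BH3-only gene, had 0 and 1 pairs in DMSO and 30 and 13 in imatinib, a ratio of summed counts, scaled to summed library totals, of 58.2 (exact 95% interval 9.90 to 2351; edgeR adjusted p = 0.00406). BIK, another BH3-only gene, had 4 and 3 pairs in DMSO and 18 and 9 in imatinib (log2 fold change 2.24, SE 0.58, edgeR adjusted p = 0.0332). BMF and BIK passed the filter on low counts through the imatinib libraries alone. BNIP3L, a receptor for the removal of mitochondria in maturing erythroid cells, went from 89.8 and 95.02 CPM to 351 and 247 CPM (1.61, SE 0.27, edgeR adjusted p = 0.00708). The median log2 fold change of the 6 was 1.02. BCL2 itself had 0, 1, 1 and 0 pairs, which is at or under the limit of 3 pairs a library.

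Of 13 genes of caspase activation, all tested, 2 fell and none rose, with a median log2 fold change of -0.11. CYCS, the cytochrome c that activates APAF1, went from 3676 and 3377 CPM to 1290 and 2059 CPM (-1.14, SE 0.30, edgeR adjusted p = 0.0374). DFFA, the inhibitor of the caspase-activated nuclease, went from 148 and 119 CPM to 53.5 and 68.0 CPM (-1.22, SE 0.30, edgeR adjusted p = 0.0281). Of 7 inhibitors of apoptosis and death receptor adaptors, 6 were tested, none rose and 1 fell. This was CFLAR, an inhibitor of caspase-8, with 66.8 and 79.6 CPM in DMSO and 21.3 and 20.8 CPM in imatinib (-1.87, SE 0.29, edgeR adjusted p = 0.00512), and the median of the list was -0.43.

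Among 13 regulators of the members, 11 were tested, 1 rose and 1 fell, with a median of -0.50. FOXO3 had 5 and 13 pairs in DMSO and 37 and 13 in imatinib, which is 1.35 and 2.53 CPM against 8.68 and 5.74 CPM (log2 fold change 1.79, SE 0.48, edgeR adjusted p = 0.0380). PIM1, a kinase whose gene is a target of STAT5 and which phosphorylates BAD, went from 24.6 and 23.4 CPM to 4.22 and 9.72 CPM (-1.93, SE 0.44, edgeR adjusted p = 0.0207).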

How the data were processed

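Per the labels and the study's methods, the authors trimmed reads with cutadapt (1.16), aligned both ends to hg38 with STAR (2.5.3a), kept uniquely mapped pairs, removed duplicates by UMI and deposited one table of raw read pair counts per library. No further filter had been applied. Groups and replicate numbers are from the titles. 3′T-fill samples and PacBio models, which hold none of the 10 genes, were not analysed here.

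The members, lists and tests were chosen with earlier results of these data known. 3′ ends followed by 7 or more A in 10 nt were left out of shares of 3′ ends, PAS clusters and TIFs. Positions were normalized by a power law (exponent 1.25) and joined within 10 bp when at 1 or more normalized counts in 2 or more libraries. TIFs have at least 4 pairs 300 bp to 2 Mb apart. Counts as deposited were tested with edgeR (4.0.16: TMM, filterByExpr, robust quasi-likelihood, Benjamini-Hochberg) and, for relative use, diffSpliceDGE. DESeq2 (1.42.0) was an alternative. Start and end groups described in shares were joined within 25 bp, and all distances are genomic. "Canonical" is the Ensembl canonical transcript in Gencode v44. The tests were run on simulated counts, with known changes in 200 genes, TIFs or clusters and the same spread set for all. That setting is simpler than these data, so it checked the working of the tests and not the calls made here. Named were all members, up to 3 starts and 3 ends of each with most pairs (others named were added after their values were seen), any called, the called genes of each list (at most 5), and the 3 nearest genes for BCL2L11 and MCL1. Some items are not reported here.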

Additional observations from a re-analysis of the deposited data

How the results depend on the processing

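All results rest on 2 libraries a group, and MCL1, BAX and BAK1 had 4 to 109 pairs a library. In the smallest library, imatinib replicate 2 with 2263121 pairs, BCL2L1 had 25 pairs, MCL1 20, BAX 25 and BAK1 4. Genes called (1800, of which 3 members) numbered 2732 with no filter on low counts, 1180 with a log2 fold change beyond 1.5 added and 820 to 3986 when 1 library was left out (0 to 5 members). TIFs called (1779, of which 3 of members) numbered 3100 (5) with no filter and 705 to 3592 (1 to 8) when 1 library was left out. The PAS clusters called in relative use (6) numbered 3 with ends before 7 or more A kept and 0 to 48 when 1 library was left out, and 0 of these were of members. TSS clusters called (338, of which 1 of members) numbered 164 (2) when joined at 50 bp and 28 to 291 (0) when 1 library was left out, and 0 of members from positions with 2 or more tags without normalization. The number tested moved as well. With no filter, 22384 genes and 34441 TIFs were tested, against 12135 and 16020 in the main setting. Joined at 50 bp, 2882 TSS clusters were tested, against 10546. Counts called and shares called therefore need not move together. The cause of these shifts was not tested. With read pairs in genes and TMM factors as the total, BCL2L11, BAD and BCL2L12 had 23.2, 94.5 and 107 CPM in imatinib. With ends before 7 or more A kept, 0.76% of BCL2L1 molecules ended before the last exon.

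Replicate numbers are shared between the groups in the labels, but nothing states that same-numbered samples share a culture, and their deviations correlated with r = -0.236 across genes. With the replicate block, 1148 genes (BCL2L1 and MCL1 among them, not BID), 1106 TIFs (2 of members, not that of PMAIP1), 0 PAS and 131 TSS clusters (0 of members) were called. With crossed numbers, added after seeing the data, 3723 genes and 6 members were called.

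Among the values of single genes, TIFs and clusters, 7 changed sign, none of them called. When 1 library was left out, BBC3 ran from -0.20 to 0.82, the relative use of the leading BID site from -0.024 to 0.027 and that of the BID site at chr22:17735241 from -0.75 to 0.26, and for BCL2L11 that of the intron 2 site from -2.09 to 6.96e-06 and that of the leading site from -0.000473 to 0.38. With ends before 7 or more A kept, the leading BID site was at 0.0017. The other alternatives left 201 values on their side of the threshold, 20 no longer called and 8 newly called.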
